A study of Mus musculus with 62 samples.

Results

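The 6 genes described here, Grm2, Grm3, Grm4, Grm5, Grm7 and Grm8, encode metabotropic glutamate receptors and were taken by gene name from a table of 56415 genes. Their levels were compared among 5 mouse brain regions and between ethanol and saline after acute and chronic exposure. RNA came from 62 tissue samples of 16 male C57BL/6J mice aged 8 to 10 weeks: cortex (CTX), the dorsal and ventral parts of the hippocampus (dHPC and vHPC) and those of the striatum (DS and VS). Acute saline and acute ethanol mice had 1 intraperitoneal injection, and chronic saline and chronic ethanol mice had 10, given daily. Ethanol was injected at 2 g/kg as a 20% solution in saline, saline mice had vehicle only, and every mouse was killed 4 h after its last injection. No transgene or deletion is given for any group. Each of the 20 groups held 3 or 4 mice. Most mice supplied several regions, so levels in different regions were not independent.

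Metabotropic glutamate receptors are G protein-coupled receptors that answer glutamate slowly, beside the ion channel receptors that carry fast excitation. Group I receptors such as mGlu5 couple to Gq and phospholipase C and lie mostly on dendritic spines. Group II (mGlu2 and mGlu3) and group III (mGlu4, mGlu7 and mGlu8) receptors couple to Gi/o, lower cyclic AMP and mostly restrain transmitter release from axon terminals, while mGlu3 is also made by astrocytes. Group II and mGlu5 receptors in particular have long been studied in alcohol seeking and in striatal plasticity.

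Gene totals ran from 8149628 to 71164766 counts per library, with medians of 51703961 in CTX, 48892266 in dHPC, 14530200 in vHPC, 14524117 in VS and 13091491 in DS. CTX and dHPC libraries were made with another kit and sequencer than vHPC, DS and VS libraries, so region and library batch cannot be told apart between these sets, and regions were tested only within a set. Replicate 2 of DS chronic saline had 0 counts on 6 chromosomes and none on chromosome 6 past position 22875501. It held 0 counts for Grm2, Grm5, Grm7 and Grm8 but 805 for Grm3 and 507 for Grm4, and was left out of every value below unless stated, which leaves 61 libraries and 2 chronic saline mice in DS. Striatal projection neuron genes and excitatory neuron genes of cortex and hippocampus set DS and VS apart from the other 3 regions with 1 overlap. These lists did not set DS apart from VS, or CTX, dHPC and vHPC from each other. Summed over 11 striatal projection neuron genes, CPM (counts scaled to a common library size of 1e6, normalized over the 61 libraries with edgeR's TMM factors) was 4749 to 9681 in DS and 2783 to 6241 in VS against 184 to 2808 in the other 3 regions, where the highest value, in replicate 5 of dHPC chronic saline, passed the lowest VS library. In the same way 10 excitatory neuron genes of cortex and hippocampus (pallial genes) summed to 1688 to 3707 in CTX, dHPC and vHPC and to 82.4 to 1101 in DS and VS. At most 1 of the 10 pallial genes and 0 of the 11 striatal genes were at 0 counts in any library. Other marker lists did separate CTX from dHPC. Dentate granule neuron genes summed to 73.5 to 127 CPM in CTX and 290 to 699 CPM in dHPC, and astrocyte genes to 674 to 906 and 974 to 1384 CPM. In bulk tissue, fewer cells of a type and less RNA per cell cannot be told apart.

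All 6 receptors passed the low-count filter in all 15 ethanol tests and in all 4 region comparisons. Scaled by exon length as CPM per kb, Grm5 ranked first of the 6 in dHPC, vHPC, DS and VS and Grm3 ranked first in CTX. Grm8 ranked last in CTX, dHPC, vHPC and VS, and Grm2 ranked last in DS. In saline mice alone Grm8 was last in DS too, at a median of 1.38 CPM per kb over 5 libraries against 1.73 for Grm2. The median CPM per kb of Grm5 was 14.5 in CTX, 20.5 in dHPC, 23.6 in vHPC, 28.4 in VS and 37.1 in DS. For Grm3 it was 22.0, 14.1, 14.1, 25.9 and 27.4, and for Grm8 1.63, 0.6255, 0.529, 0.750 and 0.973, in the same order. The summed level of the 6 genes had a median of 65.1 CPM per kb in CTX, 58.7 in dHPC, 60.6 in vHPC, 77.3 in VS and 89.2 in DS. Grm2 made up a median of 21.9% of that sum in CTX, 19.4% in dHPC and 16.8% in vHPC but 0.651% in DS and 0.946% in VS. Grm4 made up 7.73%, 5.36% and 4.07% in CTX, dHPC and vHPC against 12.0% and 12.8% in DS and VS.

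**Figure D1:**
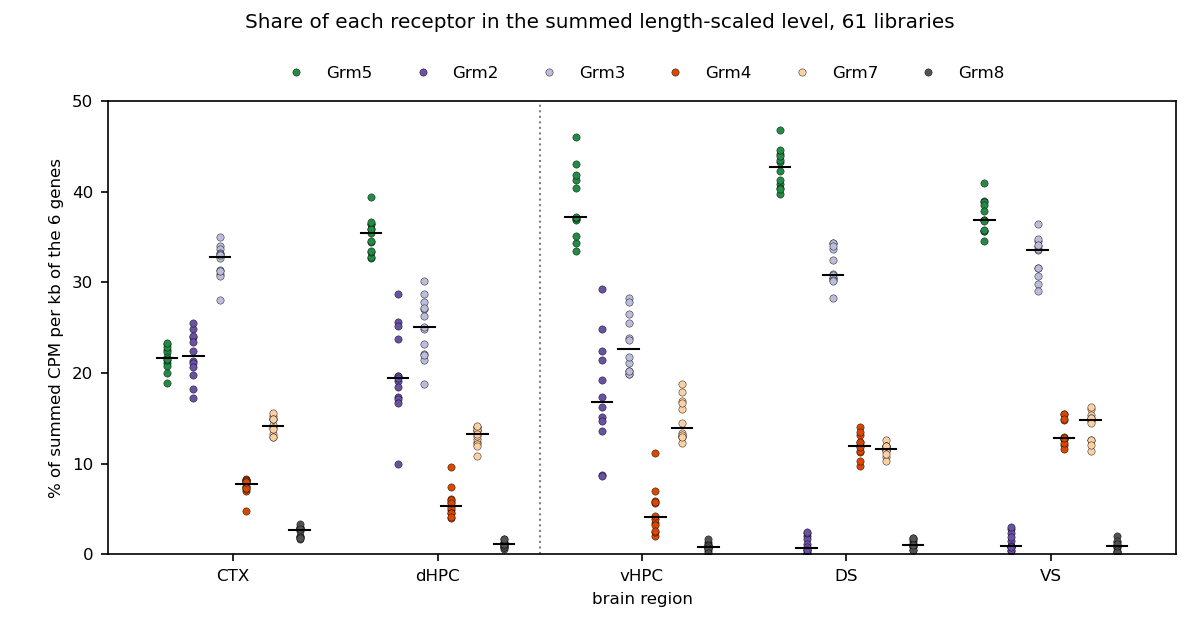
Share of each receptor (y axis, % of the summed CPM per kb of the 6 genes) in each library of 5 regions (x axis); points are 61 libraries, short lines are medians and the dotted line separates the 2 library batches. Grm2 has medians of 21.9% in CTX, 19.4% in dHPC and 16.8% in vHPC and lies at 3.02% or less in every DS and VS library.

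The largest differences between vHPC and the striatal regions were in the group II receptor Grm2 and the group III receptor Grm4. Grm2 was lower and Grm4 higher in both striatal regions. No test set dHPC against DS or VS, because it lies in the other library batch. Median CPM of Grm2 was 49.8 in vHPC (21.9 to 101.0 in 12 libraries), 2.87 in DS (0.435 to 9.64 in 12) and 3.68 in VS (1.90 to 11.7 in 12). No DS or VS library reached the lowest vHPC library. The log2 fold change was -3.75 for DS against vHPC (SE 0.39, edgeR quasi-likelihood FDR 9.37e-09) and -3.37 for VS against vHPC (SE 0.29, FDR 3.78e-10). Grm4 went the other way, with median CPM of 13.8 in vHPC (8.21 to 39.4), 64.8 in DS (44.3 to 80.1) and 62.9 in VS (47.8 to 84.8), and again the ranges did not meet. Its log2 fold change was 1.89 in both contrasts (SE 0.17 and 0.18, FDR 4.19e-10 and 3.71e-09). With saline mice alone, Grm2 was lower in DS by -2.44 on the log2 scale (FDR 0.000192), and Grm4 higher by 1.60 (FDR 5.10e-05).

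Of the 6 receptors, 6 differed between vHPC and DS at an FDR below 0.1, as did 57.8% of all genes tested, and 5 differed between vHPC and VS, against 53.8% of all genes. Grm3 was higher in DS and VS than in vHPC by 0.98 (SE 0.07, FDR 5.02e-12) and 0.84 (SE 0.09, FDR 1.03e-08) on the log2 scale. Grm5 was higher by 0.68 (SE 0.05, FDR 2.00e-11) and 0.28 (SE 0.06, FDR 0.000404). Grm7, the receptor of lowest glutamate affinity, had the smallest differences that passed, higher by 0.20 in DS (SE 0.06, FDR 0.00921) and 0.27 in VS (SE 0.07, FDR 0.00223). In saline mice alone the DS value of Grm7 turned to -0.033 (FDR 0.743) and the VS value was 0.08 (FDR 0.426). Grm8 was higher in DS by 0.86 (SE 0.25, FDR 0.00535), or by 1.64 in saline mice alone (FDR 0.000767), and its VS value of 0.38 did not pass (SE 0.29, FDR 0.307).

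Between the striatal regions, 3 of 6 receptors passed, against 37.8% of all genes. Grm5 was lower in VS than in DS by a log2 fold change of -0.37 (SE 0.06, FDR 4.62e-05), Grm8 by -0.56 (SE 0.22, FDR 0.0577), and Grm7 was higher by 0.12 (SE 0.05, FDR 0.0891). The Grm7 difference was lost in all 5 alternatives tried, with FDRs from 0.118 to 0.395 and a value of 0.08 with the mouse as a block. In saline mice alone the Grm5 difference was -0.23 (FDR 0.0833). Grm2, Grm3 and Grm4 did not pass, with values of 0.38 (95% interval -0.37 to 1.14), -0.13 (-0.28 to 0.02) and 0.01 (-0.15 to 0.16).

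Between CTX and dHPC, 6 of 6 receptors passed, as did 62.8% of all genes. Median CPM from CTX to dHPC was 149 and 211 for Grm5, which was higher in dHPC (log2 fold change 0.56, SE 0.05, FDR 3.93e-10). The other 5 were lower in dHPC. Grm8 had 16.2 and 6.19 CPM (-1.28, SE 0.15, FDR 2.69e-08), Grm4 29.8 and 18.3 (-0.57, SE 0.11, FDR 4.31e-05), and Grm3 66.9 and 43.0 (-0.52, SE 0.05, FDR 2.19e-09). Grm7 had 53.7 and 44.9 CPM (-0.27, SE 0.04, FDR 3.99e-07) and Grm2 70.5 and 54.7 (-0.27, SE 0.12, FDR 0.0546). With the mouse as a block, the Grm2 difference was -0.29 with an FDR of 0.113. In saline mice alone it was -0.60 (FDR 0.00248), and that of Grm8 was -0.79 (FDR 0.00161).

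**Figure D2:**
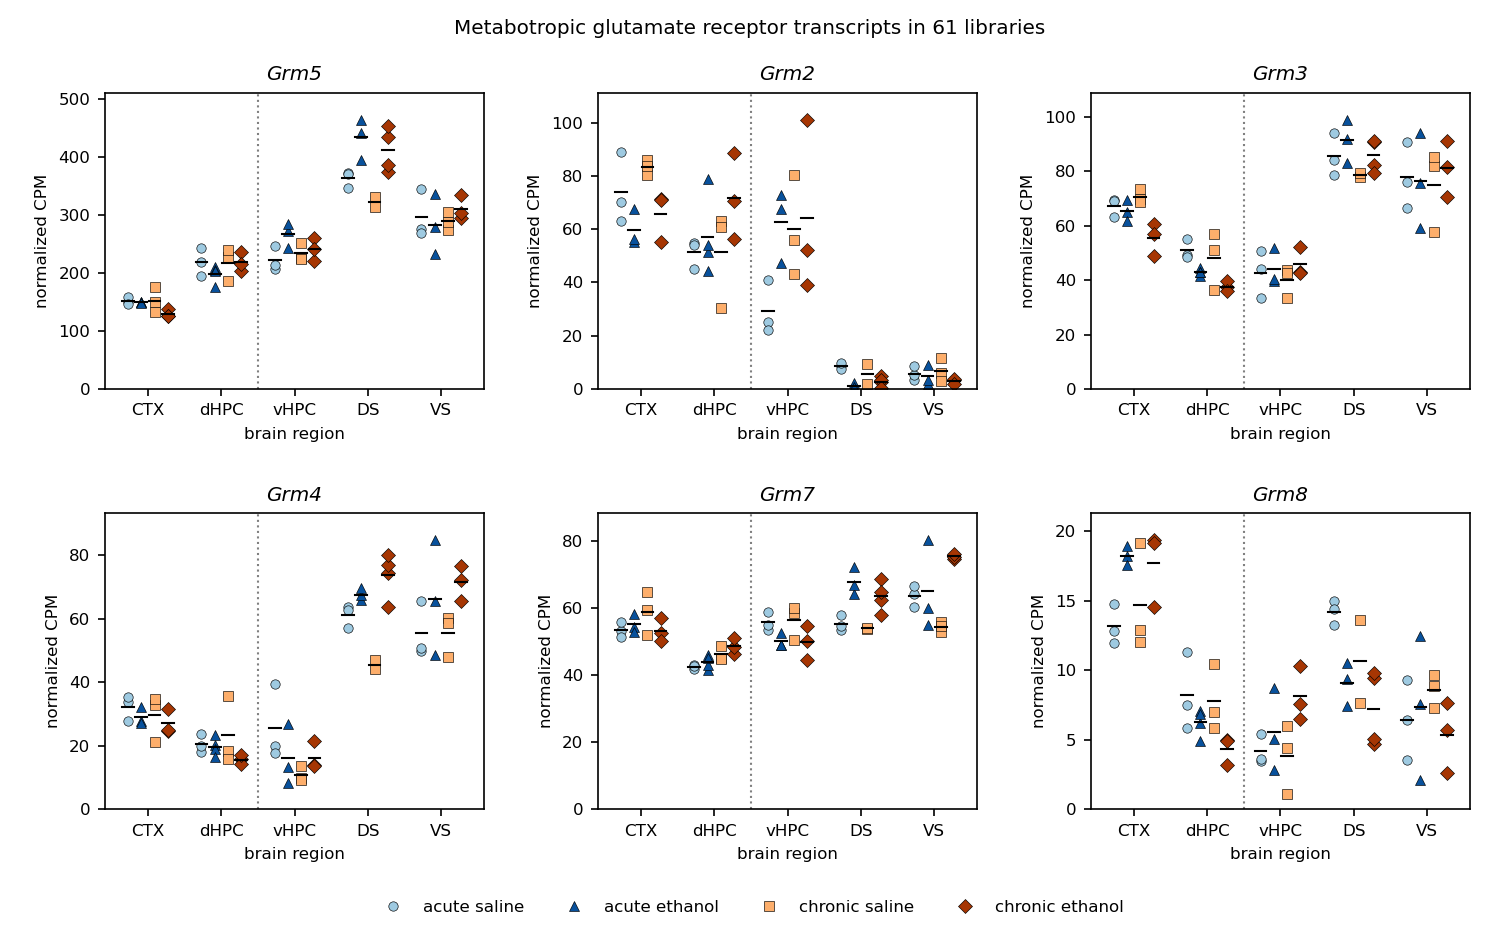
Normalized CPM (y axis) of each receptor in 61 libraries by brain region (x axis); symbols are the 4 conditions, short lines are group means and the dotted line separates the 2 library batches. Grm2 lies between 0.435 and 11.7 CPM in DS and VS and between 21.9 and 101.0 CPM in the other 3 regions, and Grm4 lies at 44.3 CPM or above in DS and VS and at 39.4 or below elsewhere.

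Changes past the FDR threshold between ethanol and saline mice were found after acute exposure, in DS and CTX. In DS the group II receptor Grm2 and the group III receptor Grm8 fell, and Grm5 and Grm7 rose. In CTX Grm8 rose. Of 30 acute tests of a receptor, 5 passed an edgeR FDR of 0.1, and 8 passed in DESeq2. In DS 4 of 6 receptors passed against 5.15% of all genes (2.05% higher and 3.1% lower), and in CTX 1 of 6 against 1.99% (0.818% higher). DESeq2 called 4 in DS, against 6.4% of all genes, and 2 in CTX, against 3.69%, and at an unadjusted p under 0.05 it was 4 in DS (15.5% of all genes) and 2 in CTX (12.5%). In dHPC, vHPC and VS edgeR called 0 of 6, against 0.042%, 0% and 0.0399% of all genes. At an unadjusted p under 0.05, 1 receptor passed in dHPC (7.88% of all genes), 2 in vHPC (11.9%) and 0 in VS (7.32%). DESeq2 called 1 in dHPC (1.07% of all genes), 1 in vHPC (2.9%) and 0 in VS (0.889%).

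After chronic exposure edgeR called 0 of 6 receptors in every region, against 0.0555% of all genes in vHPC and 0% in CTX, dHPC, DS and VS. At an unadjusted p under 0.05, 2 receptors passed in each of CTX, dHPC and vHPC and 3 in each of DS and VS, 12 of 30 tests. Over all genes, such a p was held by 10.4% in CTX, 8.23% in dHPC, 9.51% in vHPC, 9.95% in VS and 7.53% in DS. DESeq2 called 1 receptor in dHPC, against 0.859% of all genes, 1 in DS, against 0.776%, 1 in VS, against 1.79%, and 0 in CTX and vHPC, against 0.608% and 1.08%. Each receptor had a log2 fold change above 0 in 4 to 7 of its 10 pairwise tests.

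**Figure D3:**
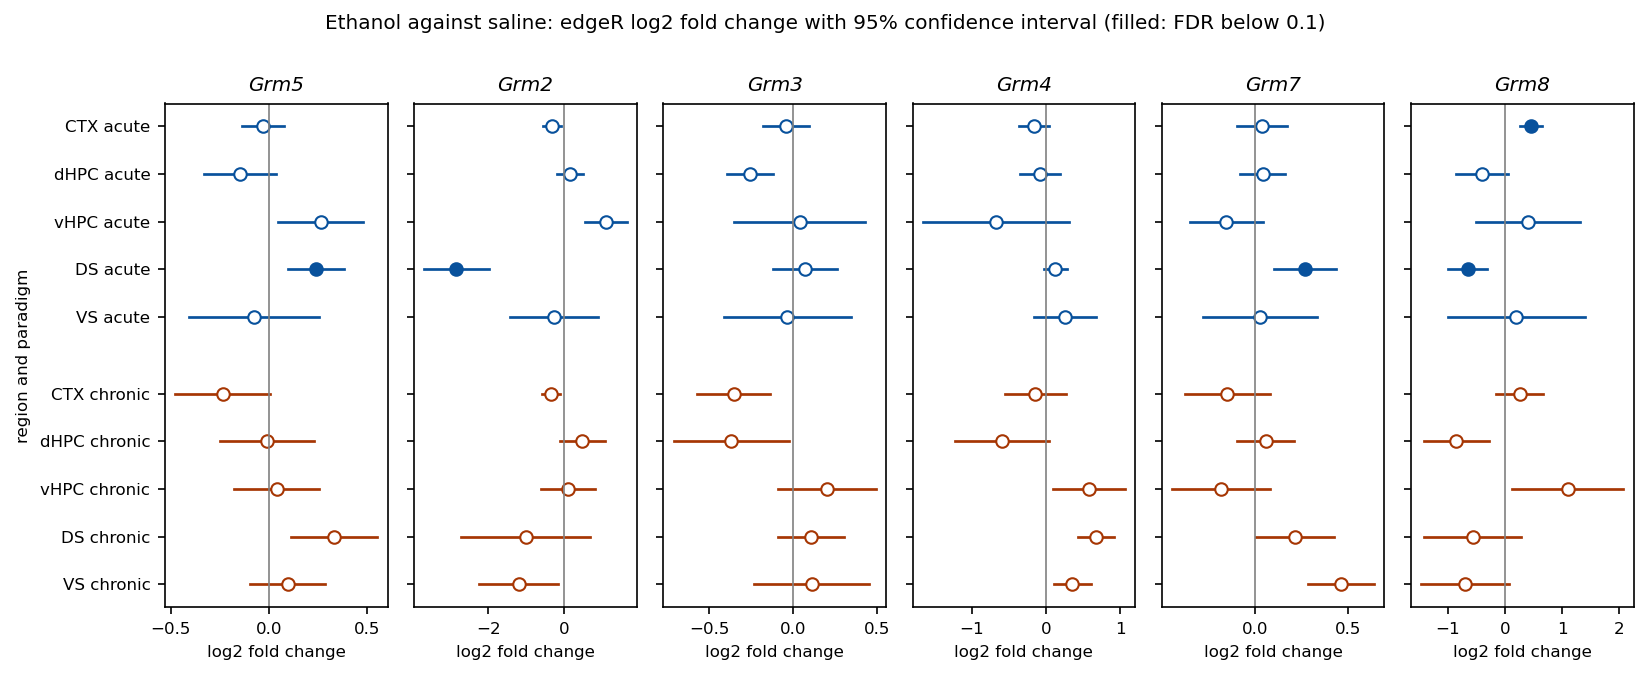
EdgeR log2 fold change of ethanol against saline (x axis, different scale in each panel) for each receptor in 5 regions and 2 paradigms (y axis); bars are 95% confidence intervals and filled points have an FDR below 0.1. The 5 filled points are Grm8 in CTX and Grm2, Grm8, Grm5 and Grm7 in DS, all after acute exposure.

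Among group I genes, Grm5 (ENSMUSG00000049583; GRCm39 chromosome 7, 87233376 to 87784115, plus strand) rose in DS after acute ethanol. Its CPM was 372, 372 and 346 in acute saline replicates 2, 4 and 6 and 442, 396 and 464 in acute ethanol replicates 3, 4 and 5, so that every ethanol library lay above every saline library. The log2 fold change was 0.24 (SE 0.07, edgeR FDR 0.0756). The call was kept in 1 of 6 fits with 1 library left out, where the FDR ran from 0.0554 to 0.266. After chronic ethanol in DS, Grm5 had 314 and 331 CPM in the 2 saline libraries and 374, 436, 387 and 453 in the 4 ethanol libraries, again without overlap, at 0.33 (SE 0.10, unadjusted p = 0.00753 in the edgeR fit, FDR 0.503). Pallial and oligodendrocyte sums, given below, were lower in these ethanol libraries without overlap, and 11 of 11 striatal genes were above 0 (median 0.45). The part of these lists in the chronic Grm5 value was not tested. In vHPC after acute ethanol the value was 0.26 (SE 0.10, FDR 0.350), with 207 to 246 CPM in saline and 242 to 285 in ethanol libraries. In CTX, dHPC and VS no ethanol test of Grm5 had an unadjusted edgeR p under 0.05.

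Among group II genes, Grm2 (ENSMUSG00000023192; chromosome 9, 106520294 to 106533279, minus strand) fell in DS after acute ethanol, the largest change of any receptor in the 30 acute tests. Acute saline replicates 2, 4 and 6 had 8.49, 7.65 and 9.64 CPM (84, 103 and 132 counts), and acute ethanol replicates 3, 4 and 5 had 0.646, 2.38 and 0.779 CPM (8, 36 and 34 counts). The ethanol libraries all lay below the saline libraries. The log2 fold change was -2.84 (SE 0.39, FDR 0.00122), and it was -3.57 to -2.46 with 1 library left out, with an FDR below 0.1 in 6 of 6 fits. In CTX, where Grm2 is well expressed, its acute saline libraries had 70.0, 88.8 and 63.0 CPM and its acute ethanol libraries 55.1, 56.1 and 67.5, a log2 fold change of -0.32 (SE 0.11, edgeR FDR 0.233, DESeq2 FDR 0.0738). These groups overlapped, and without acute saline replicate 4 the value was -0.16. Oligodendrocyte sums, given below with Grm8, were 1974 to 2235 CPM in these saline and 2341 to 3097 CPM in these ethanol libraries. Their part in the Grm2 value was not tested.

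Genes of excitatory neurons of cortex and hippocampus were also lower in the DS ethanol libraries. The 10 pallial genes summed to 604 to 711 CPM in acute saline and 108 to 214 CPM in acute ethanol libraries, and 9 of the 10 fell past an FDR of 0.1, with a median log2 fold change of -3.15 over the list against 0.00 over all genes. The 11 striatal projection neuron genes summed to 6183 to 7529 CPM in acute saline and 8264 to 8616 in acute ethanol libraries, and 9 of 11 rose, with a list median of 0.30. These sums moved with all 4 receptor changes in DS, as did 2 of 8 choroid plexus genes, which rose (list median 1.75). Their part in the receptor changes was not tested. Among DS chronic libraries the pallial sum was 563 and 827 CPM in saline and 82.4 to 268 in ethanol. Grm2 there had 9.24 and 1.87 CPM in the 2 saline libraries and 4.80, 2.43, 3.32 and 0.435 in the 4 ethanol libraries, so that the groups overlapped, and its log2 fold change was -1.02 with an FDR above 0.1.

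Pallial sums were below saline in the VS ethanol libraries too. EdgeR did not call Grm2 there. Of the 10 pallial genes it called 1 after acute and 0 after chronic ethanol (list medians -2.86 and -3.04). Over all genes it called 0.0399% and 0%. The part of the pallial genes in the VS Grm2 values was not tested. The pallial sum was 472 to 1101 CPM in acute saline and 179 to 230 in acute ethanol libraries. Grm2 had 3.45, 5.09 and 8.50 CPM in these saline and 1.90, 3.43 and 8.86 in these ethanol libraries. After chronic ethanol, VS libraries had 11.7, 6.07 and 2.95 CPM of Grm2 in saline and 3.21, 3.90 and 1.93 in ethanol (log2 fold change -1.20, SE 0.46, FDR 0.442), with pallial sums of 231 to 984 and 133 to 216 CPM. Without chronic saline replicate 3, the highest library, the value was -0.60.

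In vHPC Grm2 lay in the other direction. Acute saline replicates 2, 4 and 6 had 25.1, 40.7 and 21.9 CPM and acute ethanol replicates 3, 4 and 5 had 67.7, 47.4 and 72.9, without overlap. The log2 fold change was 1.09 (SE 0.24, unadjusted p = 0.00147 in the edgeR fit, edgeR FDR 0.207, DESeq2 FDR 0.00100). The 7 dentate granule neuron genes summed to 117 to 324 CPM in the saline and 379.5 to 604 CPM in the ethanol libraries, and 7 thalamic neuron genes to 205 to 1060 and 99.0 to 276 CPM. Their part in the Grm2 values was not tested. In vHPC chronic libraries Grm2 had 80.4, 56.0 and 43.1 CPM in saline and 39.2, 52.2 and 101.0 in ethanol, which overlap. In CTX after chronic ethanol, the saline libraries had 86.0, 80.3 and 83.7 CPM and the ethanol libraries 71.2, 55.2 and 71.0, all lower, at -0.35 (SE 0.11, FDR 0.443). There 7 of 7 oligodendrocyte genes were above 0 (median 0.35), with 1 at an unadjusted edgeR p under 0.05 and 0 called. Their sums overlapped, at 1210 to 2621 CPM in saline and 2075 to 3179 CPM in ethanol libraries. Their part in this Grm2 value was not tested.

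**Figure D4:**
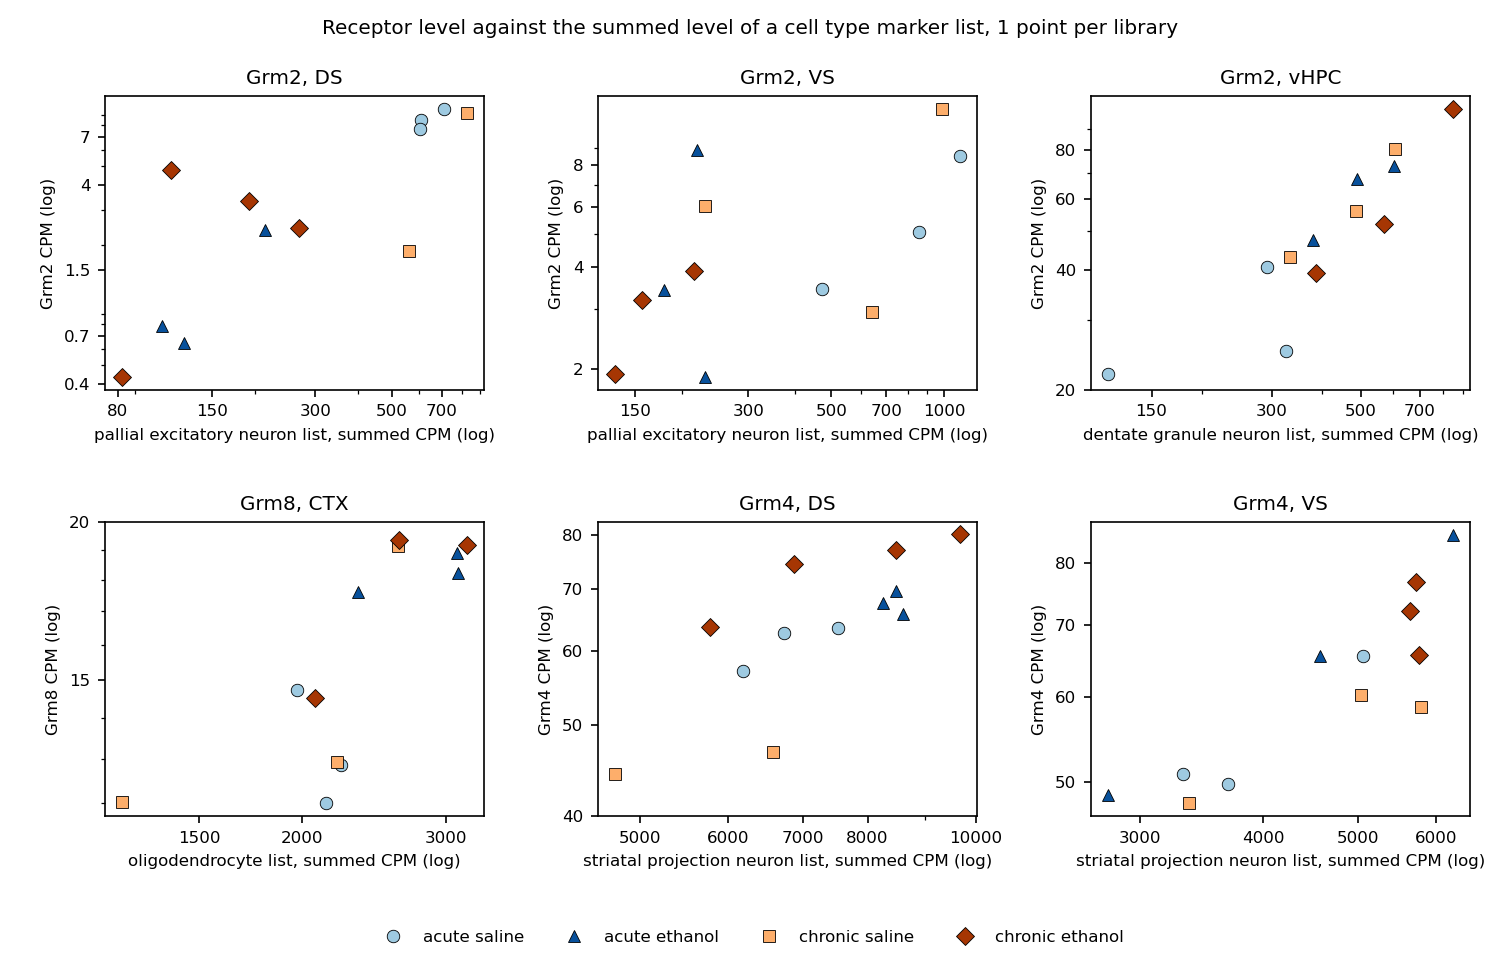
Receptor CPM (y axis, log scale) against the summed CPM of a cell type marker list (x axis, log scale), 1 point per library, symbols for the 4 conditions. In DS the 3 acute ethanol libraries have pallial sums of 108 to 214 CPM and Grm2 of 0.646 to 2.38 CPM, and the 3 acute saline libraries sums of 604 to 711 CPM and Grm2 of 7.65 to 9.64 CPM.

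Grm3 (ENSMUSG00000003974; chromosome 5, 9535541 to 9775170, minus strand) was not called in any ethanol test by edgeR. Its lower values were in CTX and dHPC. In dHPC acute saline libraries had 55.3, 49.4 and 48.5 CPM and the 4 acute ethanol libraries 44.5, 41.6, 43.0 and 42.9, all lower, at a log2 fold change of -0.25 (SE 0.06, edgeR FDR 0.316, DESeq2 FDR 0.0524). In dHPC chronic libraries it had 36.3, 57.1 and 51.1 CPM in saline and 37.3, 39.5 and 36.1 in ethanol, which overlap, at -0.37 (SE 0.15, FDR 0.583). In CTX the chronic saline libraries had 69.9, 68.7 and 73.5 CPM and the chronic ethanol libraries 60.8, 57.0 and 48.7, without overlap, at -0.36 (SE 0.10, FDR 0.443). Without chronic saline replicate 5 the dHPC chronic value was -0.22. Summed CPM of 7 astrocyte genes overlapped between saline and ethanol in these 3 comparisons, at 1203 to 1298 and 1144 to 1384 in dHPC acute, 974 to 1277 and 1175 to 1293 in dHPC chronic, and 694 to 900 and 674 to 814 in CTX chronic libraries. Other marker lists did move in dHPC. In dHPC acute, pallial sums were 1821 to 2179 CPM in saline and 2201 to 2654 in ethanol libraries, without overlap, and 11 of 11 striatal genes were lower at an unadjusted edgeR p under 0.05, at a median of -0.96 with 0 called. In dHPC chronic, 11 of 11 striatal genes (median -2.40) and 7 of 7 oligodendrocyte genes (median -0.34) were lower at such a p, with 0 called by edgeR, and DESeq2 called 7 of the oligodendrocyte genes. The part of these lists in the Grm3 values was not tested. In DS and VS no ethanol test of Grm3 gave an unadjusted edgeR p under 0.05.

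Among group III genes, Grm4 (ENSMUSG00000063239; chromosome 17, 27641361 to 27740377, minus strand) was higher in both striatal regions after chronic ethanol without passing the edgeR threshold. In DS the 2 chronic saline libraries had 44.3 and 46.9 CPM and the 4 chronic ethanol libraries 74.4, 77.1, 63.8 and 80.1, without overlap, at a log2 fold change of 0.68 (SE 0.11, unadjusted p = 0.000148 in the edgeR fit, edgeR FDR 0.172, DESeq2 FDR 0.000898). With the incomplete saline library kept in, the log2 fold change was 0.71 in edgeR (FDR 0.969) and 0.72 in DESeq2 (FDR 2.11e-07). In VS, chronic saline libraries had 60.2, 47.8 and 58.7 CPM and chronic ethanol libraries 72.2, 65.7 and 76.8, again without overlap, at 0.36 (SE 0.11, FDR 0.365). Striatal projection neuron genes summed to 4749 and 6576 CPM in DS chronic saline and 5772 to 9681 in DS chronic ethanol libraries, and to 3363 to 5791 and 5641 to 5770 CPM in VS. These striatal sums overlapped between saline and ethanol in both regions. Taken gene by gene, 11 of 11 striatal genes were above 0 in each region, with medians of 0.45 in DS and 0.29 in VS. At an unadjusted edgeR p under 0.05 it was 7 in DS and 4 in VS. EdgeR called 0 of them in each region, and DESeq2 called 1 in DS and 3 in VS. Pallial sums, given above for DS and VS chronic libraries, did not overlap in either region and were lower in ethanol. Oligodendrocyte sums in DS did not overlap either, at 9503 and 9765 CPM in saline and 6550 to 8977 CPM in ethanol libraries. The part of these lists in the Grm4 values was not tested. After acute ethanol DS had 57.2, 63.6 and 62.7 CPM of Grm4 in saline and 65.8, 67.6 and 69.6 in ethanol, without overlap but with no unadjusted p under 0.05. In vHPC the chronic value was 0.58 (SE 0.22, FDR 0.471), from 9.66, 9.27 and 13.6 CPM in saline and 13.9, 21.4 and 13.5 in ethanol, which overlap, while 6 of 8 choroid plexus genes rose there, with sums of 26.8 to 207 CPM in saline and 906 to 3250 CPM in ethanol. Pallial sums were 3133 to 3707 and 2223 to 2908 CPM in the same libraries, and without chronic ethanol replicate 5 the Grm4 value was 0.34. Their part in it was not tested.

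Grm7 (ENSMUSG00000056755; chromosome 6, 110622542 to 111543028, plus strand) rose in DS after acute ethanol. It had 53.3, 54.5 and 57.8 CPM in acute saline replicates 2, 4 and 6 and 72.2, 64.0 and 66.7 CPM in acute ethanol replicates 3, 4 and 5, without overlap. The log2 fold change was 0.27 (SE 0.08, edgeR FDR 0.0820), and leaving out any 1 of the 6 libraries ended the call, with FDRs from 0.104 to 0.250. After chronic ethanol its clearest separation was in VS, where 3 saline libraries had 52.9, 55.6 and 54.4 CPM and 3 ethanol libraries 74.5, 75.2 and 76.0. The log2 fold change there was 0.46 (SE 0.08, unadjusted p = 0.000211 in the edgeR fit, edgeR FDR 0.238, DESeq2 FDR 0.00259), and without chronic saline replicate 5 the edgeR FDR was 0.0270. Pallial sums, given above for VS chronic libraries, did not overlap there either, and their part in the Grm7 value was not tested. In DS chronic libraries the Grm7 log2 fold change was 0.21 (SE 0.09, FDR 0.655), from 53.5 and 54.1 CPM in the 2 saline libraries and 62.3, 68.5, 57.8 and 64.7 in the 4 ethanol libraries. The pallial, oligodendrocyte and striatal genes that moved in these libraries are given above with Grm4. Their part in this Grm7 value was not tested.

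Grm8 (ENSMUSG00000024211; chromosome 6, 27275118 to 28135177, minus strand) rose in CTX and fell in DS after acute ethanol. In CTX acute saline replicates 2, 4 and 6 had 12.8, 14.7 and 12.0 CPM and acute ethanol replicates 2, 4 and 5 had 18.9, 18.2 and 17.6, without overlap, at 0.46 (SE 0.09, FDR 0.0340). The call was kept in 5 of 6 fits with 1 library left out and lost without acute ethanol replicate 4 (FDR 0.158). Oligodendrocyte genes moved with it. The 7 of them summed to 1974 to 2235 CPM in the saline and 2341 to 3097 CPM in the ethanol libraries, and 6 of 7 rose, with a list median of 0.41. Striatal genes summed to 330 to 400 and 289 to 318 CPM, and 3 of 11 fell. Their part in the Grm8 value was not tested. In DS Grm8 had 14.95, 13.2 and 14.4 CPM in acute saline replicates 2, 4 and 6 and 9.36, 7.39 and 10.5 in acute ethanol replicates 3, 4 and 5, without overlap, at -0.65 (SE 0.16, FDR 0.0435). Leaving out acute saline replicate 2 (FDR 0.137) or 6 (0.119) or acute ethanol replicate 4 (0.143) ended that call.

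After chronic ethanol the Grm8 values of the 2 parts of the hippocampus lay on opposite sides of 0. In dHPC saline libraries had 5.83, 7.0 and 10.4 CPM and ethanol libraries 3.18, 4.96 and 4.89, all lower, at -0.85 (SE 0.25, edgeR FDR 0.566, DESeq2 FDR 0.0587). In vHPC saline libraries had 5.99, 4.38 and 1.12 CPM (67, 52 and 14 counts) and ethanol libraries 6.52, 10.3 and 7.57, all higher, at 1.1 (SE 0.44, FDR 0.486). Among the dHPC saline libraries, replicate 5 had a striatal projection neuron sum of 2808 CPM against 692 or less in the other 5 dHPC chronic libraries. With 1 library left out the dHPC value ran from -1.03 to -0.58, and the vHPC value was 0.65 without chronic saline replicate 6, the lowest library. Oligodendrocyte genes lay on opposite sides of 0 as well. They summed to 6550 to 7476 CPM in saline and 5273 to 6011 in ethanol libraries of dHPC (median -0.34), and to 3314 to 5721 and 4851 to 9436 CPM in vHPC (median 0.69), with 7 of 7 at an unadjusted edgeR p under 0.05 and 0 called in each. Dentate granule neuron sums in dHPC were 290 to 487 and 501 to 699 CPM, without overlap, and the choroid plexus and pallial sums of vHPC chronic libraries, given above with Grm4, did not overlap either. The part of these lists in the Grm8 values was not tested.

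In DS after acute ethanol, 5 of the 6 receptors had groups that did not overlap, as did 21.2% of all genes. In CTX it was 1 of 6 (17.6% of all genes), in dHPC 1 (8.12%), in vHPC 2 (17.7%) and in VS 0 (12.3%). After chronic ethanol it was 2 in CTX (18.3%), 1 in dHPC (14.2%), 1 in vHPC (14.8%), 2 in VS (16.1%) and 3 in DS (17.2%). The 39 pairwise tests with neither an unadjusted edgeR p under 0.05 nor a DESeq2 FDR below 0.1 had log2 fold changes from -0.67 to 0.41 after acute and -1.02 to 0.47 after chronic exposure, and none had an edgeR FDR under 0.445.

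The interaction term asked whether the ethanol effect differed between paradigms, as the chronic minus the acute log2 fold change. EdgeR called 0 of 30 receptor tests and 0% of all genes in each of the 5 regions, and 5 receptor tests had an unadjusted p under 0.05: 1 in CTX (8.19% of all genes), 0 in dHPC (4.48%), 2 in vHPC (11.5%), 1 in VS (4.62%) and 1 in DS (4.16%). DESeq2 called 0 receptors, against 0.0791% of all genes in CTX, 0.00745% in dHPC, 2.02% in vHPC, 0.0191% in VS and 0.019% in DS. Grm4 in DS had the smallest p of the 5, with a term of 0.55 (SE 0.12, unadjusted p = 0.000437 in the edgeR fit, FDR 0.973). Its acute saline libraries had 57.2 to 63.6 CPM, its chronic saline libraries 44.3 and 46.9 CPM, and its 7 ethanol libraries 63.8 to 80.1 CPM, so that the saline groups stood further apart than the ethanol groups. In vHPC Grm2 had -1.0 (SE 0.46, FDR 0.432) and Grm4 1.26 (SE 0.55, FDR 0.410). Grm4 in vHPC had 39.4, 19.9 and 17.8 CPM in acute saline and 13.2, 26.8 and 8.21 in acute ethanol libraries, and replicate 2 of acute saline, the highest, also had the thalamic sum of 1060 CPM. Without it the Grm4 term was 0.81. Grm7 in VS had 0.43 (SE 0.16, FDR 0.997) and Grm3 in CTX -0.32 (SE 0.12, FDR 0.60).

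Signalling partners of these receptors were taken from 3 lists: 12 partners of group I receptors (Homer scaffolds, Gq and phospholipase C genes), 18 Gi/o and adenylyl cyclase partners, and 12 genes that supply or clear glutamate and NAAG, the peptide agonist of mGlu3. In DS after acute ethanol, 8 of the 42 passed an edgeR FDR of 0.1, 2 higher and 6 lower, against 5.15% of all genes (2.05% higher and 3.1% lower). The vesicular glutamate transporter Slc17a7, itself one of the pallial genes, fell from 318 ± 46.2 to 36.2 ± 37.1 CPM (SD, n = 3 and 3; log2 fold change -3.20, edgeR FDR 0.00295). The calcium-stimulated adenylyl cyclases Adcy8 and Adcy1 fell from 7.76 ± 0.647 to 3.70 ± 0.892 CPM (-1.06, FDR 0.0216) and from 352 ± 46.5 to 219 ± 13.2 CPM (-0.70, FDR 0.000587), and Adcy2 fell from 75.9 ± 6.35 to 54.7 ± 6.46 CPM (-0.49, FDR 0.0155). The other 4, named after their values were seen, were Plcb4 (-0.45) and Nat8l (-0.23), which fell, and Adcy9 (0.38) and Adcy5 (0.37), the main striatal adenylyl cyclase, which rose.

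In DS acute, the list medians were -0.14 for group I partners, -0.04 for Gi/o partners and -0.03 for glutamate supply, against 0.00 over all genes. In CTX after acute ethanol 2 of the 42 passed, against 1.99% of all genes. Adcy8 fell from 26.2 ± 0.891 to 19.5 ± 2.17 CPM (SD, n = 3 and 3; -0.43, edgeR FDR 0.0340), and Tamalin, a scaffold that binds group I receptors, fell from 50.5 ± 4.52 to 37.7 ± 0.8287 CPM (-0.43, FDR 0.0200). Over the other 13 ethanol tests edgeR called 0 of these genes, with 1 to 17 of 42 at an unadjusted p under 0.05 and 17 DESeq2 calls in 546 gene tests. Over all genes, 4.16% to 11.9% had such a p in these tests and DESeq2 called 0.00745% to 2.9%. The largest counts at such a p were in vHPC. They were 14 of 42 after acute ethanol (11.9% of all genes), 15 after chronic ethanol (9.51%) and 17 for the interaction (11.5%). DESeq2 called 5, 1 and 5 of the 42 there, against 2.9%, 1.08% and 2.02% of all genes.

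Counts of 32 transcript isoforms gave 475 isoform tests, of which edgeR called 12, all after acute ethanol. In DS 4 isoforms of Grm2 and 3 of Grm8 fell and 2 of Grm5 rose, against 3.59% of all isoforms called there, and in CTX 3 isoforms of Grm8 rose, against 1.24%. In DS the 4 Grm2 isoforms had log2 fold changes from -2.98 to -2.72. Every called isoform had the direction of its gene, and isoforms of a gene share reads, so that these are not separate observations. DESeq2 called 35 of the 475, among them 6 of 8 Grm4 isoforms in DS, against 0.467% of all isoforms, and 3 of 5 Grm7 isoforms in VS, against 1.02%, all higher after chronic ethanol.

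Across the 61 libraries, after the mean of each library batch was subtracted, log2 CPM of Grm2 was most like that of Sobp (Pearson r = 0.950), Galnt9 (0.939) and Olfm1 (0.937) among 14409 genes. Grm3 was nearest to Arhgap10 (0.945), Pmepa1 (0.938) and Lrrk2 (0.936), Grm4 to Elmo1 (0.959), Tmem164 (0.938) and Unc13c (0.937), and Grm5 to Kcnd2 (0.921), Slk (0.909) and Foxo1 (0.895). Grm7 and Grm8 had looser neighbours, with Syndig1 (0.787), Atp8b2 (0.769) and Lin7a (0.750) for Grm7 and Garnl3 (0.778), Tox (0.739) and Dpy19l1 (0.729) for Grm8. Within the family, Grm3 and Grm4 were the closest pair (0.887) and Grm2 and Grm4 the most opposed (-0.824). These values are descriptions over libraries that share mice and fall into regions.

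Exons of Grm2, Grm4, Grm7 and Grm8 are each overlapped on the other strand by an annotated gene (Gm28111, Gm49789, Gm20387 and Gm52896), and Grm8 also holds Mir592 on its own strand. Grm3 and Grm5 have no such overlap. CTX and dHPC libraries keep no strand, so there the counts of these 4 genes may include reads of the partner, which was not tested.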

How the data were processed

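Poly(A) RNA of 62 samples was measured. The authors used Cutadapt 5.0 for trimming, STAR 2.7.10a for alignment to GRCm39, and featureCounts 2.0.6 with an Ensembl annotation for counting over exons. All libraries were counted as reverse-stranded, although the CTX and dHPC kit keeps no strand, and reads that map to or overlap several features entered the count of every one. The authors deposited raw gene and isoform counts. Of gene counts from 2 to 20, 73.6 to 93.9% were even, so both mates of a pair may each be counted, and counting error is larger than the counts show.

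Genes that reached 5 counts in 2 or more samples of any group compared were tested with edgeR 4.0.16 (quasi-likelihood F test, TMM, limma 3.58.1, R 4.3.3) and Benjamini-Hochberg adjustment over all genes tested, with a threshold FDR of 0.1. Each comparison was fitted on its own groups, the interaction on 4 groups, and regions with condition as covariate. SEs and 95% intervals come from these fits. DESeq2 1.42.0, the study's tool, was an alternative, as were its size factors, other filters, 1 fit of 4 groups, blocks and each library left out. CPM is normalized over 61 libraries. Exon length came from the count table, and overlaps from GENCODE vM39. Plots were drawn with matplotlib 3.10.9.

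Samples were grouped by their labels. The 64 replicate pairs differed by more than sampling noise (chi-square per gene of 5.98 or more). For regions, the mouse was taken from the label. Deviations of a mouse's 2 libraries had median correlations of 0.107, 0.088, -0.001 and 0.108 in the 4 comparisons (CTX with dHPC, vHPC with DS, vHPC with VS, DS with VS). These values do not by themselves identify a mouse. Members and lists were chosen with earlier results of these data known. A log2 fold change is given on its own where the unadjusted edgeR p was below 0.05 or the DESeq2 FDR below 0.1, up to 4 list genes with an FDR below 0.1 were named per test by size, and 3 genes per receptor by correlation among genes with mean CPM of at least 1. The code was tested on simulated counts, where edgeR recovered, of 200 genes given a log2 change of 1.5, 89.5% in the DS acute and 81% in the DS chronic design. Of the edgeR calls, 13.5% and 12.9% were genes given no change. Recovery of smaller changes was not simulated. All pairwise receptor changes with ethanol but that of Grm2 in DS acute were below 1.5 in size.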

Additional observations from a re-analysis of the deposited data

Results flagged for a closer look

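For 4 pairs of comparisons, every ethanol library of 1 region lay above every saline library while in another region every ethanol library lay below. None of these differences between regions was tested, and the share of all genes with such a pair was not counted. In the single comparisons used here, groups did not overlap for 14.2% (dHPC chronic) to 21.2% (DS acute) of all genes. Grm2 after acute ethanol was above saline in vHPC (47.4 to 72.9 against 21.9 to 40.7 CPM) and below it in DS (0.646 to 2.38 against 7.65 to 9.64 CPM), log2 fold changes that differ by 3.93. Grm7 after acute ethanol was above saline in DS (64.0 to 72.2 against 53.3 to 57.8 CPM) and below it in vHPC (48.9 to 52.4 against 53.2 to 58.8 CPM), a difference of 0.42. Grm8 after acute ethanol was above saline in CTX (17.6 to 18.9 against 12.0 to 14.7 CPM) and below it in DS (7.39 to 10.5 against 13.2 to 14.95 CPM), a difference of 1.1098 between regions of different library batches. Grm8 after chronic ethanol was above saline in vHPC (6.52 to 10.3 against 1.12 to 5.99 CPM) and below it in dHPC (3.18 to 4.96 against 5.83 to 10.4 CPM), a difference of 1.95, also across batches. In the 2 groups of 4 libraries, dHPC acute ethanol and DS chronic ethanol, none of the 6 receptors (12 sets of values) had a library past Dixon's critical value, which chance exceeds in about 1 of 20 sets.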

How the results depend on the processing

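Of 429 alternative values for the 46 named results, 381 kept their direction and side of the FDR threshold, 26 lost the call, 21 gained it and 1 reversed, Grm7 in DS against vHPC in saline mice (-0.033). In DS acute, edgeR called 4 receptors, 1 to 2 with 1 library left out and 1 with all 4 groups in one fit. In CTX acute it called 1, 0 to 1 with 1 library left out, 0 with all 4 groups in one fit, and 2 with DESeq2 or no low-count filter. In VS chronic it called 0, 0 to 1 with 1 library left out, 1 with DESeq2 and 2 with no filter. DESeq2 called 1 in dHPC acute, vHPC acute, dHPC chronic and DS chronic, where edgeR called 0. Without the filter edgeR called 1 in vHPC acute and DS chronic and 2 in vHPC chronic and in the vHPC and DS interactions. DS chronic gave 1 with all 4 groups in one fit, and DESeq2 with chronic saline replicate 2 kept in, chosen after seeing the data, gave 1 in DS chronic and 1 in the DS interaction. DESeq2 called 35 isoforms against 12. Over all genes, acute calls ran over the alternatives from 0 to 1488 in CTX (515 in the reported fit), 0 to 281 in dHPC (11), 0 to 578 in vHPC (0), 283 to 1798 in DS (1056) and 0 to 536 in VS (8). Chronic calls ran from 0 to 156 in CTX, 223 in dHPC, 475 in DS and 615 in VS (0 in each reported fit) and to 790 in vHPC (11). DS against VS ran from 2041 to 8490 (8241). The cause of these shifts was not tested. With at least 10 counts in every sample, Grm2 dropped out of DS acute. A fit that leaves out a DS chronic saline library has 1 saline library, assumed to vary like the ethanol group.

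Replicate numbers name different mice in saline and ethanol groups, because each mouse had 1 treatment. The 14 same-numbered pairs had correlations from -0.311 to 0.469, 4 over 0.1. Such correlations cannot tell the same mouse from different mice. The replicate block called 2 receptors in CTX acute against 1, and 0 in the other ethanol tests where it could be fitted. With 2 to 4 mice per group and 8149628 to 71164766 counts, low levels (Grm2 in DS, Grm8 in vHPC) are the least precise.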
